A study of Homo sapiens with 46 samples.

Results

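The genes described here are 10 enzymes of serine synthesis, asparagine synthesis and folate one-carbon metabolism: PHGDH, PSAT1, PSPH, SHMT1, SHMT2, MTHFD1, MTHFD1L, MTHFD2, ALDH1L2 and ASNS. They were taken by symbol, and they are 10 of the 61228 genes of the HCT116 table and 10 of the 30160 genes of the HEK293 table. They were selected on the measured RNA levels of PHGDH, PSAT1, MTHFD2 and ASNS, which had been seen to be low after 2, 4 and 6 days of Ku80 degradation. The values of that time course are therefore given as a description, without a test. Results of the other groups were also known when the genes were chosen, so the tests in those groups are not independent support for a direction. All 10 passed the filter on low counts in every fit, although ALDH1L2 passed on only 11 to 75 estimated counts per HCT116 library.

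The study asked how human cells respond when Ku, the heterodimer of Ku70 and Ku80 that binds DNA ends, is removed. RNA was sequenced in 46 libraries, 40 from HCT116, a colorectal carcinoma line, and 6 from HEK293, an embryonic kidney line. HCT116 Ku80-AID cells carry Ku80 fused to an auxin-inducible degron, so that the auxin IAA causes the protein to be destroyed. They received 100 µM IAA with 0.5 µg/mL doxycycline for 1 day (clones 1 and 9), or for 2, 4 and 6 days (clones 1, 7 and 9), against DMSO for 1 day (clones 1 and 9) or for 2 days (clones 1, 7 and 9). The same agents were given together with a CDK4/6 inhibitor, which holds cells before S phase, for 2 days (clones 1 and 9) and 4 days (clones 1, 7 and 9), against the inhibitor alone. HCT116 Ku80-AID, MAVS-/- cells also lack MAVS, the adaptor through which cytosolic RNA sensors signal, and received IAA and doxycycline for 4 days against DMSO for 4 days (clones 1, 13 and 15). HCT116 Ku86Flox/-:CreERT2 cells have 1 deleted and 1 floxed copy of the Ku80 gene, and received 50 nM 4OHT, which sends Cre to the nucleus, against ethanol for 4 days (2 replicates each), as did Ku86Flox/- cells without Cre (2 replicates each). HEK293 Ku70-/- clones Sa11, SB and TI, kept alive by doxycycline-inducible ectopic Ku70 in 1 µg/mL doxycycline, were sampled 8 days after doxycycline withdrawal and with doxycycline. The 6 HEK293 labels number the inducible Ku gene differently, and it was taken as Ku70 in all. Since doxycycline was present with IAA and absent from its controls, and was itself the agent withdrawn in HEK293, its own effect cannot be told apart from that of Ku loss in these arms. Each clone descends from 1 cell, and the numbered Ku86Flox/- replicates are not said to be separate cultures, so p-values measure the spread between these libraries, which may be technical.

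Serine is made from a glycolytic intermediate in a short pathway: PHGDH oxidises 3-phosphoglycerate, PSAT1 transfers an amino group to the product, and PSPH removes the phosphate. SHMT2 in mitochondria and SHMT1 in the cytosol split serine into glycine and a carbon unit carried by tetrahydrofolate. MTHFD2, ALDH1L2 and MTHFD1L oxidise or release that unit in mitochondria, and MTHFD1 handles it in the cytosol, where it enters purine and thymidylate synthesis. ASNS makes asparagine from aspartate and glutamine. In cultured cells several of these genes, ASNS, PHGDH, PSAT1 and MTHFD2 among them, are known targets of ATF4, the transcription factor of the amino acid response, and MYC is known to raise several of them.

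The sequences before the transcription start are shown for the 4 genes that led to the choice and for MTHFD1, whose pattern over the degron groups was most like that of PSAT1. They are the 250 bases upstream of the start, 5′ to 3′ on the gene's strand, from RefSeq on GRCh38.p14, and 7 of the 10 genes had an entry. Capitals mark a match to the ATF4 composite element TGATGNAA or to the MYC E-box CACGTG, searched on both strands.
PHGDH, chr1:119711684-119711933, plus strand: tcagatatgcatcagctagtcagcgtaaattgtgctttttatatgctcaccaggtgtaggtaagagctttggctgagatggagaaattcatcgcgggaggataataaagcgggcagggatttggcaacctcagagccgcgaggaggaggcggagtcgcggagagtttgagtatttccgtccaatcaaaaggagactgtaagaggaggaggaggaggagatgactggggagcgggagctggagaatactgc
PSAT1, chr9:78296875-78297124, plus strand: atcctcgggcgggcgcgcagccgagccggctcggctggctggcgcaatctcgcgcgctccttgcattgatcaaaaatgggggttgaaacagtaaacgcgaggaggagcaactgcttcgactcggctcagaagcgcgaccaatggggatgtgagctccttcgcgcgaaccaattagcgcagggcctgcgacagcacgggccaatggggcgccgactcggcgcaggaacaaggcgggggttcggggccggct
MTHFD1, chr14:64388103-64388352, plus strand: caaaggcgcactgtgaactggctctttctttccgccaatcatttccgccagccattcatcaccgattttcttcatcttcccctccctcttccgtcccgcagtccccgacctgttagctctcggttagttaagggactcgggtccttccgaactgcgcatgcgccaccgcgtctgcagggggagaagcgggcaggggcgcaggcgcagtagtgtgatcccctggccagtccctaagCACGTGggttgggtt
MTHFD2, chr2:74198365-74198614, plus strand: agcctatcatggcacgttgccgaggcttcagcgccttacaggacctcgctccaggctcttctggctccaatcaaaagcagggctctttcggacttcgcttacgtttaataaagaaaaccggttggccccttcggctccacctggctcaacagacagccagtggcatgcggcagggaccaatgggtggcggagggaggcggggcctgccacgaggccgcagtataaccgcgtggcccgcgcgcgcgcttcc
ASNS, chr7:97872409-97872658, minus strand: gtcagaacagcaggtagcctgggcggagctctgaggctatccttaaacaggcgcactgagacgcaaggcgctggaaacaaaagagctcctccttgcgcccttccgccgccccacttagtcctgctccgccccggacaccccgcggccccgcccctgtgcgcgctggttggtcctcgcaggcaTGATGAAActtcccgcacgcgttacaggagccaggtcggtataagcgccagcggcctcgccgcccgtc

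The ASNS window shown, 1 of 2 annotated, held TGATGAAA, which spans bases 68 to 61 before the start, and the MTHFD1 window held CACGTG at bases 15 to 10 before the start. MTHFD1L, on chromosome 6, held both motifs in 2 of its 4 annotated windows, which overlap and hold the same sites. The windows of PHGDH, PSAT1, MTHFD2 and SHMT1 held neither. Bases just after each annotated start were also looked for near the start of the gene's GENCODE transcripts. They were found for all windows shown except that of PSAT1. They were not found for the 2 MTHFD1L windows with motifs, but were for its window at 150866083-150866332, which held neither motif. The starts of PSAT1 and of those 2 MTHFD1L windows are therefore less certain. Of all 35116 windows of the same length, 3.14% held TGATGNAA and 6.34% held CACGTG. The motifs did not overlap each other in these windows. PSPH, SHMT2 and ALDH1L2 are named only.

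Totals of estimated counts ran from 9.53 to 45.7 M in the degron libraries, from 13 to 17.6 M in the Ku86Flox/- libraries and from 19.6 to 28.5 M in HEK293. XRCC5, which encodes Ku80, had 24.9 and 30.7 CPM (counts scaled to library size) with Cre and 4OHT, against 256 and 258 CPM with Cre and ethanol. XRCC6, which encodes Ku70, had 419, 605 and 339 CPM in HEK293 clones Sa11, SB and TI without doxycycline, against 3220, 3530 and 2270 CPM with it. The degron acts on the Ku80 protein, so XRCC5 RNA is no check of it: in the degron libraries it ran from 166 to 398 CPM over all groups. At 1 TPM or more, taken as the median over libraries, stood 7 of 10 colon epithelial markers in HCT116 and 6 of 10 in HEK293, and 2 of 7 HEK293 markers in HCT116 and 4 of 7 in HEK293. CEACAM5, of the colon list, was at 0 in HCT116, and of 10 blood and stromal markers 7 were at 0 there, PTPRC, CD3E, PECAM1, COL1A2, COL3A1 and LUM among them, and 1 stood at 1 TPM or more. In HEK293 4 of these 10 had a median of 1 TPM or more, PTPRC, PECAM1 and LUM among them. In bulk RNA, fewer cells of a type and less RNA per cell cannot be told apart.

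Per length, the mitochondrial enzymes MTHFD2 and SHMT2 had the highest medians in HCT116. In TPM, which scales reads by transcript length and library size, the medians over the 40 HCT116 libraries, treatments included, were 244 for MTHFD2, 212 for SHMT2, 85.5 for PSAT1, 83.8 for MTHFD1, 72.2 for PHGDH, 70.1 for ASNS, 46.7 for MTHFD1L, 43.4 for PSPH and 38.5 for SHMT1. ALDH1L2, which releases the carbon unit as carbon dioxide, had a median of 0.58 TPM and at most 2.28 TPM. The ranges over libraries of all neighbours in this order overlapped, except that ALDH1L2 stayed below SHMT1, whose lowest library had 12.5 TPM. The order pools treated and control libraries and does not hold in each group: ASNS had 182, 248 and 208 TPM with DMSO for 2 days, level with SHMT2 at 205, 220 and 225 TPM. In HEK293 the order of the medians differed: 273 TPM for SHMT2, 216 for ASNS, 162 for PHGDH, 152 for MTHFD2, 109 for MTHFD1, 97.7 for MTHFD1L, 74.7 for PSAT1, 35 for PSPH, 8.77 for SHMT1 and 2.55 for ALDH1L2. SHMT1, at 6.76 to 21.9 TPM there, lay below PSPH at 32.8 to 59.9 TPM, without overlap. These are levels from separately made tables, polyA-enriched in HCT116 and ribosome-depleted in HEK293, and were not compared by a test.

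In the time course that led to the choice, PHGDH and PSAT1 of serine synthesis were low at all 3 times of IAA. PSPH was low at 4 days alone, and without overlap only in CPM. In TPM it had 23.2, 40.1 and 25.2 at 4 days of IAA in clones 1, 7 and 9, against 34.2, 40.5 and 45.5 with DMSO. PHGDH had 63.6, 73 and 72 CPM in clones 1, 7 and 9 with DMSO for 2 days, then 28.1, 30.4 and 37.3 CPM at 2 days of IAA, 11.5, 7.65 and 11.6 CPM at 4 days, and 8.19, 11 and 12.2 CPM at 6 days. No IAA library reached the lowest DMSO library, and the levels at 4 and 6 days overlapped each other while both lay below those at 2 days. Fitted log2 differences from DMSO were -1.13 ± 0.19 (standard error, SE) at 2 days, -2.76 ± 0.20 at 4 days and -2.74 ± 0.20 at 6 days. PSAT1 had 124, 193 and 144 CPM with DMSO, then 40.2, 52.5 and 49 CPM at 2 days, 29.5, 28.2 and 44.6 CPM at 4 days and 43.1, 31.8 and 43.7 CPM at 6 days. Its 3 times overlapped, at log2 differences of -1.70, -2.18 and -1.96 from DMSO. PSPH, the last enzyme of the pathway, had 33.2, 40.8 and 39 CPM with DMSO, then 32.1, 37.8 and 36.9 CPM at 2 days, 22.5, 28.6 and 23.1 CPM at 4 days and 42, 31.8 and 42.8 CPM at 6 days. Its libraries at 4 days lay below all DMSO libraries, and those at 2 and 6 days overlapped them.

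Enzymes of the folate cycle and ASNS were low as well, and some returned part of the way by day 6. MTHFD2, the mitochondrial dehydrogenase of the cycle, had 326, 397 and 349 CPM with DMSO, then 108, 124 and 114 CPM at 2 days, 89.5, 113 and 102 CPM at 4 days and 189, 138 and 181 CPM at 6 days. The 6-day libraries lay above all libraries of 2 and 4 days and below all DMSO libraries. ASNS had 150, 207 and 160 CPM with DMSO, then 50.1, 66.6 and 59.8 CPM at 2 days, 32, 44.1 and 38.8 CPM at 4 days and 68.9, 49.3 and 69.5 CPM at 6 days, so that its lowest values were at 4 days. MTHFD1L, which releases formate from mitochondria, differed by -1.08, -0.80 and -0.34 on the log2 scale at 2, 4 and 6 days, and its 6-day libraries, at 79.4, 80.5 and 82.9 CPM, stood between those of 4 days and the DMSO libraries at 104, 100 and 104 CPM. The cytosolic enzymes kept low: MTHFD1 differed by -1.31, -1.47 and -1.44, and SHMT1 by -0.78, -0.95 and -1.40. SHMT2 differed by -0.70, -0.86 and -0.51, and ALDH1L2 by 0.54, -0.94 and -0.43, where on the log2(TPM + 1) scale it was at 0.19 at 4 days and 0.37 at 6 days, on few counts. Of the regulators, ATF4 averaged 242 CPM with DMSO, then 216, 387 and 656 CPM at 2, 4 and 6 days, and MYC 464 CPM with DMSO, then 203, 324 and 356 CPM.

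At an adjusted p under 0.05, 9.94%, 14.9% and 17.5% of all 18877 genes tested were called lower at 2, 4 and 6 days. In the same order, 9.12%, 17.9% and 17.8% were called higher. Calls of the 10 genes are not counted, because the same libraries led to their choice. All 3 times share the 2-day DMSO libraries, and those at 4 and 6 days have no control of their own time. The libraries at 6 days were also deeper, at 21.3 to 45.7 M counts, than the DMSO libraries at 9.96 to 13.7 M; the part of this in the differences was not tested. The DMSO libraries of 1 and of 2 days stood apart for several genes, with 350 and 359 CPM of SHMT2 at 1 day against 164, 195 and 195 CPM at 2 days, and 117 and 111 CPM of ASNS at 1 day against 150, 207 and 160 CPM at 2 days. Whether these sets were made or sequenced together is not given in the sources used here.

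**Figure D1:**
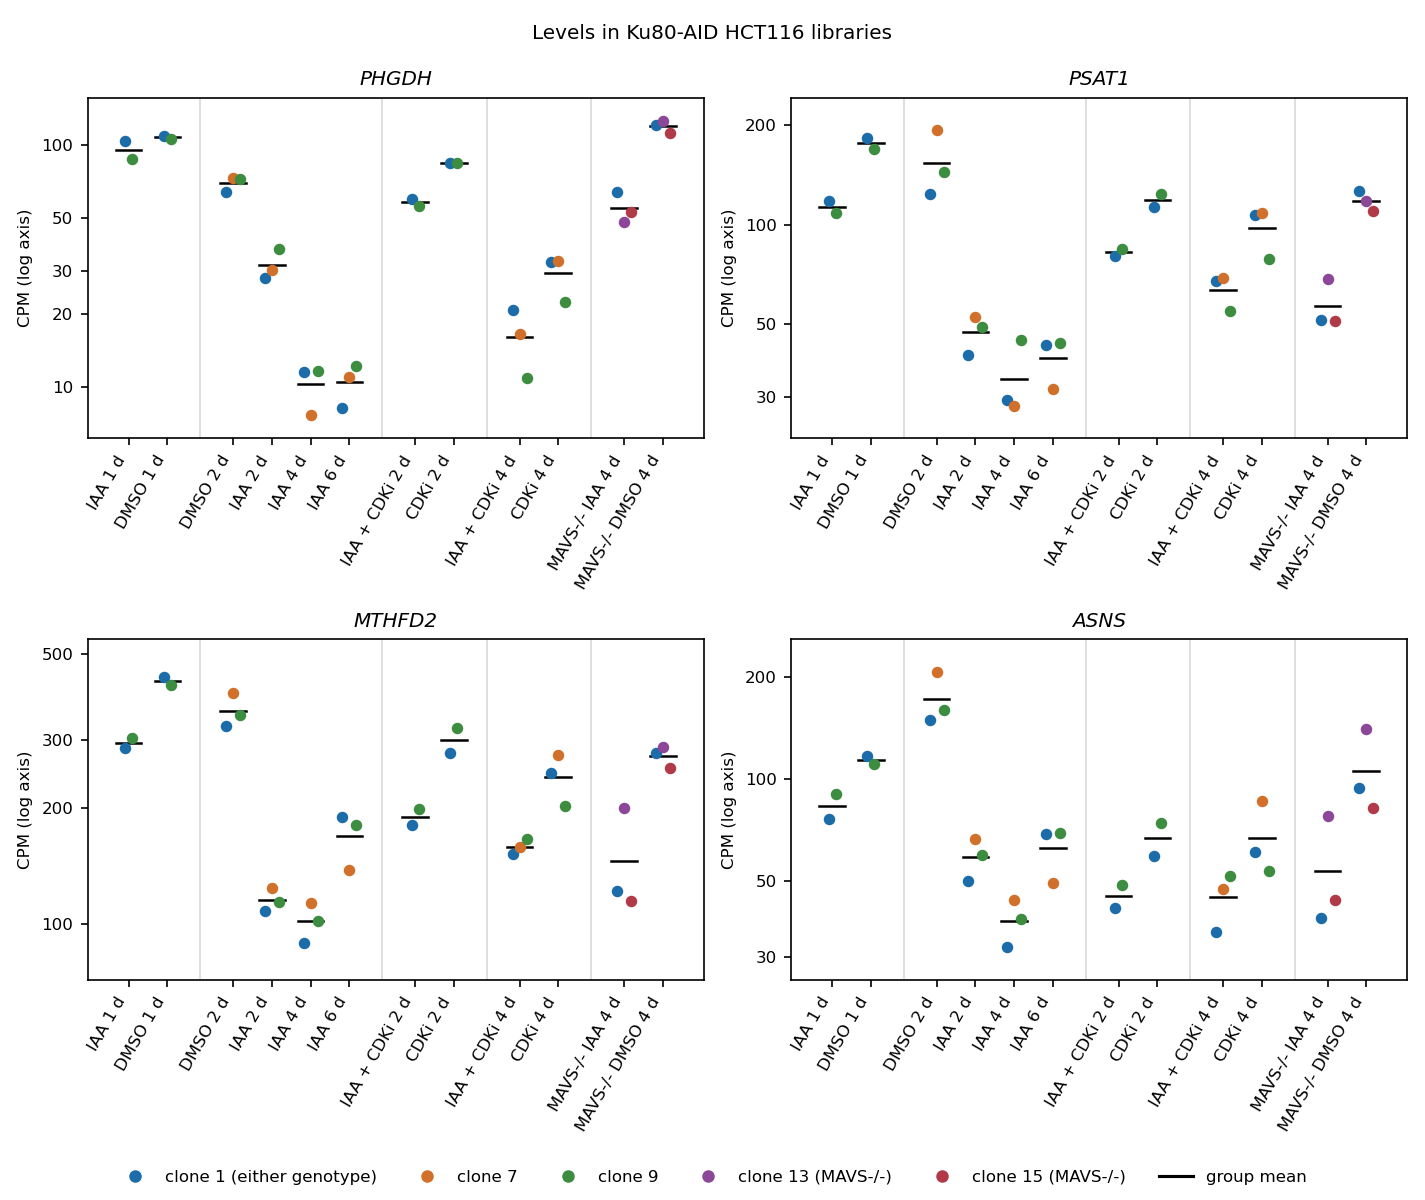
CPM (log axis) of PHGDH, PSAT1, MTHFD2 and ASNS in each Ku80-AID library; points are libraries coloured by clone, black lines are group means, CDKi is the CDK4/6 inhibitor, and grey lines separate sets with their own control. PHGDH was at 7.65 to 12.2 CPM at 4 and 6 days of IAA, and all 4 genes lay lower with IAA than with DMSO in the MAVS-/- clones.

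Outside the libraries of that time course, the earliest comparison was the response at 1 day, in clones 1 and 9. MTHFD1L alone passed it, with 115 and 124 CPM with IAA, against 170 and 178 CPM with DMSO (log2 difference -0.54 ± 0.11, edgeR quasi-likelihood adjusted p = 0.0435). It was 1 of 10 genes called lower, and 0 were called higher, beside 0.0689% of all genes called lower and 0.117% called higher. PSAT1 had 118 and 108 CPM with IAA, against 183 and 169 CPM with DMSO, MTHFD1 had 199 and 190 CPM, against 291 and 279 CPM, and MTHFD2 had 285 and 304 CPM, against 437 and 417 CPM. These groups did not overlap, yet the differences of -0.64 ± 0.21, -0.55 ± 0.13 and -0.53 ± 0.19 did not pass the threshold (adjusted p = 0.306, 0.0637 and 0.378). PHGDH had 104 and 87.4 CPM with IAA, against 109 and 106 CPM with DMSO, and PSPH had 52.8 and 55 CPM, against 50.2 and 57.7 CPM. SHMT1, SHMT2, ASNS and ALDH1L2 did not pass either, at -0.32 ± 0.14, -0.19 ± 0.17, -0.45 ± 0.28 and 0.56 ± 0.46. Without the count filter PSAT1 passed (adjusted p = 0.0441) and MTHFD1L did not (0.179), and with limma on TPM MTHFD1L did not (0.356). A fit of only these 4 libraries called 1607 of all genes, against 35 with all degron libraries. With the clone as a block MTHFD1 passed (adjusted p = 0.033), with only these 4 libraries in the fit 6 of the 10 passed, and the MTHFD1L call ended when any of the 4 libraries was left out (adjusted p = 0.48 and 0.64 without the DMSO library of clone 1 and of clone 9, and 0.996 and 0.333 without the IAA library of clone 1 and of clone 9). Of the other pathway lists, CAD, the first enzyme of pyrimidine synthesis, was called lower (130 CPM with IAA and 254 CPM with DMSO, adjusted p = 0.00122), as 1 of 17 purine and pyrimidine genes; MYC had 202 and 460 CPM (-1.19 ± 0.29, adjusted p = 0.0844) and ATF4 371 and 432 CPM (-0.22 ± 0.18, adjusted p = 0.995).

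With the CDK4/6 inhibitor in both arms for 2 days, MTHFD1, the cytosolic enzyme with 3 activities of the folate cycle, was the one gene to pass: it had 149 and 159 CPM with IAA and inhibitor in clones 1 and 9, against 238 and 254 CPM with the inhibitor alone (log2 difference -0.68 ± 0.13, adjusted p = 0.0163). This was 1 of 10 genes lower and 0 higher, beside 0.117% of all genes called lower and 0.297% called higher. MTHFD2 had 180 and 199 CPM with IAA and inhibitor, against 277 and 323 CPM with the inhibitor, and MTHFD1L had 85.7 and 94.1 CPM, against 113 and 135 CPM. PHGDH had 59.7 and 55.9 CPM, against 84.3 and 84.2 CPM. With only these 4 libraries in the fit, 4 of the 10 passed, and 575 of all genes were called, against 78 with all degron libraries. In the fit of all degron libraries the differences of -0.66 ± 0.19, -0.47 ± 0.11 and -0.54 ± 0.22 did not pass (adjusted p = 0.159, 0.0689 and 0.439), although the arms of none of the 3 overlapped; with the clone as a block MTHFD1L did (adjusted p = 0.0202). Without the count filter MTHFD2 passed (adjusted p = 0.00807), and with limma on TPM MTHFD1 did not (0.191). PSAT1, SHMT1, SHMT2, ASNS, ALDH1L2 and PSPH did not pass, at -0.53 ± 0.21, -0.35 ± 0.14, -0.31 ± 0.17, -0.57 ± 0.28, -0.68 ± 0.46 and 0.06 ± 0.16. The MTHFD1 call ended without any 1 of the 4 libraries (adjusted p = 0.27 and 0.348 without the inhibitor library of clone 1 and of clone 9, and 0.475 and 0.246 without the IAA and inhibitor library of clone 1 and of clone 9). LARS1, the leucyl-tRNA synthetase, MAT2A, which makes S-adenosylmethionine, and CAD were the members of other lists called lower, at -0.77 ± 0.15, -0.53 ± 0.11 and -0.68 ± 0.14. ATF4 had 258 CPM with IAA and inhibitor and 258 CPM with the inhibitor, and MYC 311 and 498 CPM (-0.68 ± 0.29, adjusted p = 0.479).

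After 4 days with the inhibitor, 6 of the 10 genes fell with IAA: PHGDH, PSAT1, SHMT1, MTHFD1, MTHFD1L and MTHFD2. None rose, and of all genes 5.1% were called lower and 6.13% higher. PHGDH had 20.8, 16.5 and 10.9 CPM with IAA and inhibitor in clones 1, 7 and 9, against 32.8, 33.1 and 22.4 CPM with the inhibitor alone (log2 difference -0.86 ± 0.19, adjusted p = 0.00325). The arms did not overlap, and within each clone IAA was lower, by -0.65, -0.98 and -1. The cytosolic enzymes fell as well: MTHFD1 had 112, 112 and 121 CPM, against 187, 203 and 178 CPM (-0.72 ± 0.10, adjusted p = 3.79e-05), and SHMT1 had 35.3, 33.7 and 37.8 CPM, against 49.7, 50.8 and 54.7 CPM (-0.54 ± 0.11, adjusted p = 0.00215). PSAT1 had 67.3, 68.8 and 54.6 CPM, against 107, 108 and 78.4 CPM (-0.62 ± 0.17, adjusted p = 0.0204). MTHFD2 had 152, 158 and 166 CPM, against 246, 274 and 202 CPM (-0.60 ± 0.16, adjusted p = 0.011), and MTHFD1L had 62.6, 67.7 and 72.6 CPM, against 94.6, 90.2 and 89 CPM (-0.43 ± 0.094, adjusted p = 0.00293). For each of these genes the arms did not overlap. With limma on TPM the calls of PSAT1, MTHFD1L and MTHFD2 ended (adjusted p = 0.133, 0.144 and 0.15).

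The other 4 enzymes did not pass at 4 days with the inhibitor. ASNS had 35.5, 47.4 and 52 CPM with IAA and inhibitor, against 61.2, 86.3 and 53.8 CPM with the inhibitor (-0.58 ± 0.23, adjusted p = 0.114), and clone 9 differed by only -0.05 on the log2 scale. With the clone as a block ASNS passed (adjusted p = 0.0183), as it did without the count filter (0.00231). SHMT2 had 131, 108 and 106 CPM, against 134, 148 and 179 CPM (-0.42 ± 0.14, adjusted p = 0.0505); it passed with RLE factors (adjusted p = 0.044), no count filter (0.0321), DESeq2 (0.019), limma on TPM (0.0409) and only the compared groups (0.0452), and without either library of clone 1 (0.0373 and 0.0386). PSPH had 47.3, 41.9 and 42.6 CPM, against 38.4, 41.2 and 40 CPM (0.14 ± 0.13, adjusted p = 0.591), and ALDH1L2 had 1.44, 1.51 and 2.06 CPM, against 2.76, 1.08 and 2.02 CPM. The PSAT1 call ended without the IAA and inhibitor library of clone 9 (adjusted p = 0.105) and without the inhibitor library of clone 1 (0.09) or clone 7 (0.0936), and the MTHFD2 call without the IAA and inhibitor library of clone 1 (0.0543) or the inhibitor library of clone 7 (0.074).

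Genes of purine and pyrimidine synthesis moved in the same direction at 4 days with the inhibitor, where 5.1% of all genes were called lower and 6.13% higher. Of 17 genes 9 fell and 0 rose, with a median log2 difference of -0.42, beside -0.01 over all genes and -0.56 over the 10 enzymes. PAICS, a purine synthesis enzyme, had 283 CPM with IAA and inhibitor and 487 CPM with the inhibitor (-0.78 ± 0.12), TK1, the thymidine kinase, 75.7 and 137 CPM (-0.86 ± 0.14), and CAD 127 and 201 CPM (-0.66 ± 0.12). Of 20 other folate and one-carbon genes tested, 4 fell, among them TYMS, the thymidylate synthase (-0.92 ± 0.16), and 1 rose, SFXN3, a sideroflexin (0.64 ± 0.097). Aminoacyl-tRNA synthetases were called lower for 3 of 20 and higher for 1, amino acid transporters for 0 of 14 in either direction. ATF4 had 229 CPM with IAA and inhibitor and 220 CPM with the inhibitor (0.06 ± 0.15, adjusted p = 0.884). Among the 18 stress-response regulators 4 rose, DDIT3 (1.47 ± 0.23) and EIF2AK2, the RNA-activated kinase PKR (1.03 ± 0.13), among them, and 1 fell, EIF2AK1 (-0.65 ± 0.10). MYC had 507 CPM with IAA and inhibitor and 818 CPM with the inhibitor (-0.69 ± 0.23, adjusted p = 0.0551).

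In the MAVS-/- clones, 9 of the 10 enzymes fell after 4 days of IAA, and the exception was again PSPH. None rose, and of all genes 3.15% were called lower and 4.73% higher. PHGDH had 63.8, 47.8 and 52.9 CPM with IAA in clones 1, 13 and 15, against 121, 125 and 112 CPM with DMSO (log2 difference -1.12 ± 0.18, adjusted p = 0.000268). PSAT1 had 51.3, 68.2 and 51.1 CPM, against 126, 118 and 110 CPM (-1.05 ± 0.18, adjusted p = 0.000363). Both genes were lower with IAA in each clone and the arms did not overlap. MTHFD1 had 99.7, 130 and 104 CPM with IAA, against 186, 207 and 197 CPM with DMSO (-0.82 ± 0.10, adjusted p = 1.85e-05). MTHFD2 had 122, 200 and 115 CPM, against 277, 288 and 253 CPM (-0.91 ± 0.16, adjusted p = 0.000534), and MTHFD1L had 77, 96.1 and 71.8 CPM, against 111, 122 and 116 CPM (-0.51 ± 0.094, adjusted p = 0.00105). Clone 13 was the highest IAA library for all 3 of these folate enzymes, and its differences, -0.67 for MTHFD1, -0.53 for MTHFD2 and -0.34 for MTHFD1L, were the smallest of the 3 clones.

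The remaining calls in the MAVS-/- clones rested on particular libraries. ASNS had 38.9, 77.9 and 44.2 CPM with IAA, against 94.2, 141 and 82.3 CPM with DMSO (-0.98 ± 0.23, adjusted p = 0.00757). It was lower in every clone, by -1.27, -0.86 and -0.89, and the arms did not overlap. SHMT1 had 44.6, 40.9 and 43.3 CPM, against 55.7, 55.7 and 60.2 CPM (-0.41 ± 0.11, adjusted p = 0.0219), SHMT2 had 174, 234 and 186 CPM, against 271, 261 and 281 CPM (-0.45 ± 0.14, adjusted p = 0.0414), and ALDH1L2 had 1.45, 0.753 and 0.788 CPM, against 3, 3.26 and 2.17 CPM (-1.48 ± 0.38, adjusted p = 0.0158), on 11 to 46 counts per library. PSPH had 49.2, 50.7 and 41.5 CPM, against 51.6, 38 and 46.2 CPM (0.06 ± 0.13, adjusted p = 0.905). The ASNS call ended without the IAA library of clone 1 or 15 (adjusted p = 0.0546 and 0.0775) or the DMSO library of clone 13 (0.0834), and that of SHMT1 without the IAA library of clone 13 or 15 (0.0686 and 0.0797) or the DMSO library of clone 15 (0.0935). That of SHMT2 ended without the IAA library of clone 1 or 15 (0.176 and 0.196) or the DMSO library of clone 1, 13 or 15 (0.0993, 0.0788 and 0.126), and that of ALDH1L2 without the IAA library of clone 13 or 15 (0.0683 and 0.0829) or the DMSO library of clone 1 or 13 (0.0523 and 0.0657). With only these 6 libraries in the fit, 4 of the 10 passed: PHGDH, PSAT1, MTHFD1 and ALDH1L2. That fit called 775 of all genes, against 1488 with all degron libraries. Without the count filter the calls of SHMT1 and ALDH1L2 ended (adjusted p = 0.137 each), and with limma on TPM those of SHMT1, SHMT2 and ALDH1L2 (0.178, 0.145 and 0.4).

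The genes around the pathway moved less evenly in the MAVS-/- clones, where 3.15% of all genes were called lower and 4.73% higher. Of 17 purine and pyrimidine genes 6 fell and 0 rose, PAICS (-0.78 ± 0.12), CAD (-0.72 ± 0.12) and TK1 (-0.67 ± 0.13) among them, with a median of -0.30, beside -0.01 over all genes and -0.86 over the 10 enzymes. Of 11 methionine cycle and transsulfuration genes 4 fell, including AHCY, which clears S-adenosylhomocysteine (-0.73 ± 0.13), and MAT2A (-0.43 ± 0.091). Of 20 other folate genes 3 fell, among them GCSH of the glycine cleavage system (-0.79 ± 0.15) and SFXN1, the mitochondrial serine carrier (-0.40 ± 0.11), and SFXN3 rose (0.47 ± 0.097). The 18 stress-response regulators had a median of 0.38, and 5 rose, DDIT3 to 42.5 CPM with IAA, against 10.1 CPM with DMSO (2.06 ± 0.22), and PPP1R15A, which restarts translation (1.42 ± 0.23), among them; 2 fell, DDIT4 (-1.56 ± 0.26) being one. ATF4 had 415 CPM with IAA and 320 CPM with DMSO (0.38 ± 0.15, adjusted p = 0.127), and MYC fell to 150 CPM with IAA, against 352 CPM with DMSO (-1.23 ± 0.24, adjusted p = 0.00153). Of 20 tRNA synthetases 2 fell and 0 rose, and of 14 amino acid transporters 0 passed in either direction. Of 8 colon epithelial markers tested, 1 rose, CDH1, in these clones (0.75 ± 0.17) as with the inhibitor at 4 days (0.69 ± 0.17); the part of this in the results was not tested.

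Set side by side, the IAA difference at 4 days was -2.76 for PHGDH in MAVS-intact clones against the 2-day DMSO, -0.86 with the inhibitor and -1.12 in MAVS-/- clones. For PSAT1 the values were -2.18, -0.62 and -1.05, for MTHFD2 -1.82, -0.60 and -0.91, and for ASNS -2.17, -0.58 and -0.98. The first of each set has no control of its own time and was not tested against the others. The references also differed: for these genes the inhibitor alone at 4 days lay below DMSO at 2 days. PHGDH had 22.4 to 33.1 CPM, against 63.6 to 73 CPM, and ASNS 53.8 to 86.3 CPM, against 150 to 207 CPM. With DMSO for 4 days the MAVS-/- clones had 112 to 125 CPM of PHGDH, above DMSO at 2 days, and 82.3 to 141 CPM of ASNS, below it. At 4 days of IAA PHGDH had 10.9 to 20.8 CPM with the inhibitor and 7.65 to 11.6 CPM without it, which overlap. So did ASNS, at 35.5 to 52 and 32 to 44.1 CPM. PSAT1, at 54.6 to 68.8 and 28.2 to 44.6 CPM, and MTHFD2, at 152 to 166 and 89.5 to 113 CPM, did not. The MAVS-/- response minus the response with the inhibitor was tested, and 0 of the 10 genes passed in edgeR, 1 of them at an unadjusted p under 0.05 (ALDH1L2, -1.25 ± 0.53, unadjusted p = 0.0268). The differences were -0.25 for PHGDH (95% interval -0.80 to 0.29), -0.44 for PSAT1 (-0.95 to 0.08), -0.30 for MTHFD2 (-0.76 to 0.15) and -0.40 for ASNS (-1.08 to 0.28). For SHMT1, SHMT2, MTHFD1, MTHFD1L and PSPH they were 0.13, -0.03, -0.10, -0.08 and -0.08, and for ATF4 and MYC 0.32 and -0.54. DESeq2 and limma also called 0 of the 10. Of all genes 0.27% were called lower and 0.0053% higher in this contrast. The 2 responses differ in both MAVS and the inhibitor, which cannot be told apart.

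**Figure D2:**
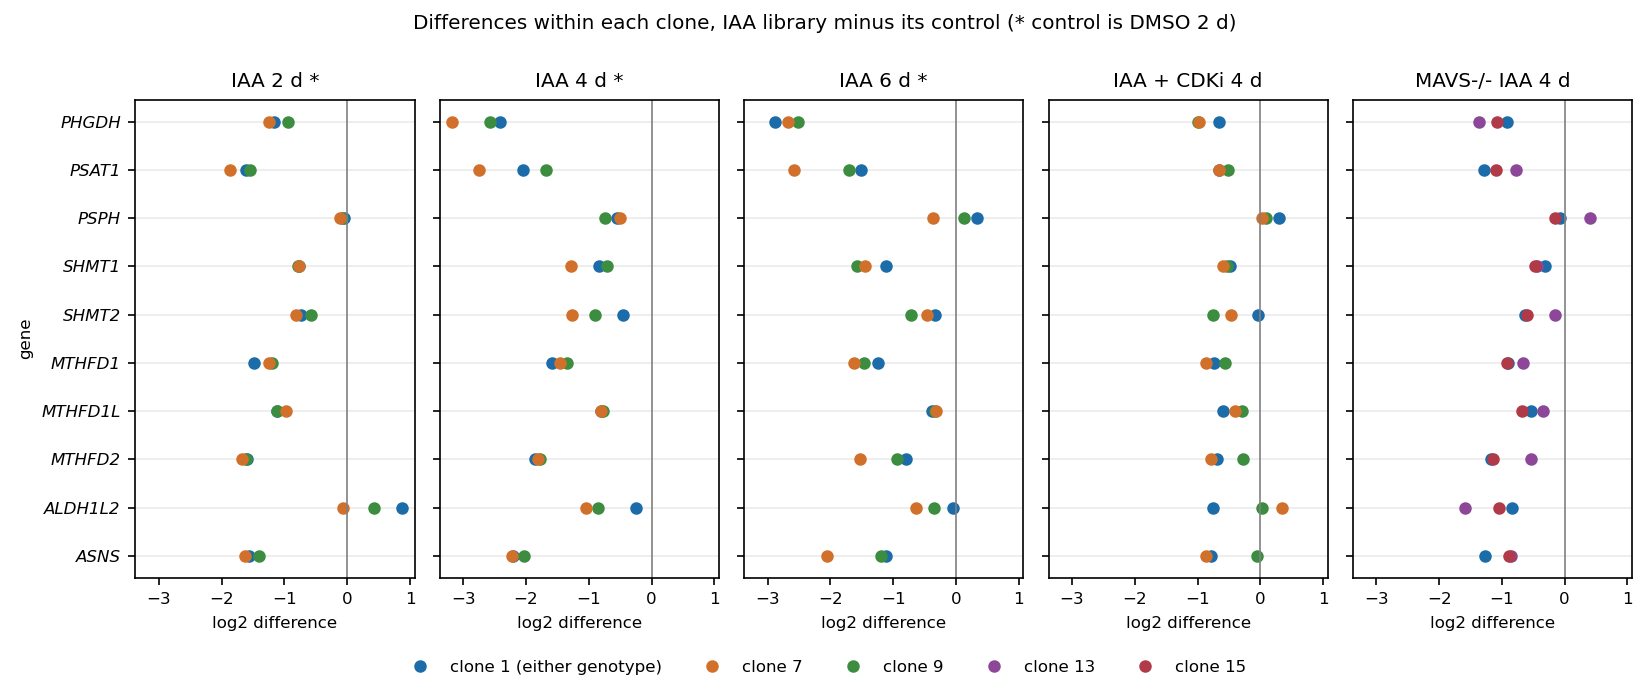
Log2 difference of each enzyme between the IAA library and the control library of the same clone (x axis), for 5 sets of libraries; each point is 1 clone, and panels with an asterisk use the 2-day DMSO control and led to the choice of the genes. PSPH runs from -0.74 to 0.41, and PHGDH is left of 0 in every clone of every panel.

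The inhibitor alone was compared at 2 days with DMSO at 1 day in clones 1 and 9, and time differs between these arms. MTHFD1L was the 1 of 10 genes called lower (log2 difference -0.48 ± 0.11, adjusted p = 0.0156). It had 113 and 135 CPM with the inhibitor, against 170 and 178 CPM with DMSO. Of all genes 1.68% were called lower and 1.95% higher. ASNS had 59.4 and 74.5 CPM with the inhibitor, against 117 and 111 CPM with DMSO (-0.77 ± 0.28, adjusted p = 0.138, and 0.0182 with the clone as a block). PHGDH, PSAT1, MTHFD2, SHMT2, MTHFD1, PSPH and ALDH1L2 did not pass, at -0.36, -0.57, -0.51, -0.40, -0.21, 0.03 and 0.54, and SHMT1 had 62.6 and 66.6 CPM, against 55.6 and 53.8 CPM. ATF4 fell to 258 CPM with the inhibitor, against 432 CPM with DMSO (-0.74 ± 0.18, adjusted p = 0.019), and MYC had 498 and 460 CPM (0.11 ± 0.29). Without the count filter MTHFD1L did not pass (adjusted p = 0.1), and ASNS, PSAT1 and MTHFD2 did (0.00103, 0.0299 and 0.043). With only these libraries in the fit, 6 of the 10 passed: MTHFD1L, PHGDH, PSAT1, SHMT2, MTHFD2 and ASNS. That fit called 3325 of all genes, against 686 with all degron libraries. The MTHFD1L call ended without the inhibitor library of clone 1 (adjusted p = 0.394) and without the DMSO library of clone 1 or 9 (0.0999 and 0.215).

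In Ku86Flox/-:CreERT2 cells 7 of the 10 enzymes fell with 4OHT. Loss of Ku80 and nuclear Cre itself cannot be told apart in this comparison. PHGDH had 26.3 and 26.2 CPM with 4OHT in Cre cells, against 165 and 149 CPM with ethanol (log2 difference -2.58 ± 0.096, adjusted p = 1.50e-10). MTHFD1 had 123 and 118 CPM, against 235 and 233 CPM (-0.96), ASNS had 58.1 and 53.1 CPM, against 107 and 110 CPM (-0.96), and SHMT1 had 34.9 and 33.4 CPM, against 66.9 and 64.1 CPM (-0.94). MTHFD2 had 180 and 178 CPM, against 306 and 310 CPM (-0.78), SHMT2 had 181 and 179 CPM, against 261 and 241 CPM (-0.48), and PSAT1 had 101 and 95.8 CPM, against 126 and 130 CPM (-0.38 ± 0.062, adjusted p = 0.000167). PSPH rose, with 54.1 and 52.8 CPM, against 33.2 and 37.7 CPM (0.59 ± 0.076, adjusted p = 1.86e-05). MTHFD1L had 120 and 120 CPM, against 126 and 120 CPM (-0.04, adjusted p = 0.608), and ALDH1L2 1.49 and 1.85 CPM, against 1.25 and 1.51 CPM (adjusted p = 0.47). Of all 16726 genes tested here 27.5% were called lower and 26.4% higher.

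4OHT without Cre also moved some of these genes. ASNS had 91.4 and 88.9 CPM with 4OHT, against 141 and 135 CPM with ethanol (-0.62, adjusted p = 3.10e-05), and MTHFD1L had 104 and 106 CPM, against 125 and 133 CPM (-0.29, adjusted p = 0.00395). PHGDH and MTHFD2 were called lower by -0.31 (adjusted p = 0.0246) and -0.17 (adjusted p = 0.0282), and PSPH and SHMT1 higher by 0.36 (adjusted p = 0.0135) and 0.25 (adjusted p = 0.0189). This made 4 of 10 lower and 2 higher, beside 6.44% of all genes called lower and 7.26% higher. The call of PHGDH ended without the 4OHT library of replicate 1 (adjusted p = 0.206) or the ethanol library of replicate 2 (0.104), that of PSPH without the 4OHT library of replicate 1 (0.147), that of SHMT1 without either 4OHT library (0.12 and 0.104) or the ethanol library of replicate 1 (0.0825), and that of MTHFD2 without either 4OHT library (0.108 and 0.152). SHMT2 passed without the ethanol library of replicate 1 (adjusted p = 0.00745). SHMT2, PSAT1, MTHFD1 and ALDH1L2 were at -0.14, -0.05, -0.01 and 0.42 and did not pass. With limma on TPM PSPH alone passed, and with only the compared groups PHGDH, SHMT1 and MTHFD2 did not (adjusted p = 0.0505, 0.061 and 0.098).

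The 4OHT response with Cre minus that without it was therefore tested for each gene. PHGDH differed by -2.27 ± 0.13 (adjusted p = 1.64e-08), SHMT1 by -1.19 ± 0.092, MTHFD1 by -0.95 ± 0.074 and MTHFD2 by -0.62 ± 0.064. ASNS differed by -0.34 ± 0.084 (adjusted p = 0.00518), SHMT2 by -0.34 ± 0.089 and PSAT1 by -0.33 ± 0.088. MTHFD1L differed in the other direction, by 0.26 ± 0.077 (adjusted p = 0.0169). For PSPH the interaction did not pass (0.24 ± 0.11, adjusted p = 0.108), nor for ALDH1L2 (-0.15). That is 7 of 10 lower and 1 higher, beside 22.4% of all genes called lower and 18.8% higher. On the log2(TPM + 1) scale the median of all genes moved to -0.18 in this contrast, and MTHFD1L was at 0.10 there (limma adjusted p = 0.439); its call also ended without the count filter (0.0527). The PSAT1 call ended without the Cre 4OHT library of replicate 2 (adjusted p = 0.0591), and that of MTHFD1L without the Cre ethanol library of replicate 2 (0.0875) or the 4OHT library of replicate 1 without Cre (0.0578).

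Around these enzymes, 13 of 17 genes of nucleotide synthesis fell after 4OHT with Cre and 0 rose, RRM2, a ribonucleotide reductase subunit, by -2.60 ± 0.055 and TK1 by -2.40 ± 0.10 among them. This and the counts below stand beside 27.5% of all genes called lower and 26.4% called higher. TYMS (-1.59 ± 0.062) and GGH, which trims folate polyglutamates (-1.64 ± 0.094), were among 8 of 19 other folate genes that fell, and 2 rose. SLC7A11, the cystine transporter, had 22 CPM with 4OHT and 64 CPM with ethanol, the smallest adjusted p among 9 of 14 transporters that fell. AARS1, the alanyl-tRNA synthetase, fell (-1.04 ± 0.051) among 8 synthetases lower and 7 higher of 20. ATF4 fell with Cre (-0.42 ± 0.047) and without (-0.26 ± 0.047), and the interaction did not pass (-0.16 ± 0.067, adjusted p = 0.0686). MYC rose with Cre (0.36 ± 0.046) and fell without it (-0.19 ± 0.046), and its interaction passed (0.55 ± 0.065, adjusted p = 1.80e-05). Medians of the lists were -0.44 for nucleotide synthesis, -0.32 for the other folate genes and -0.63 for the 10 enzymes, beside 0 over all genes. Colon epithelial markers moved as well, 5 of 8 tested higher and 1 lower, with 166 CPM of CDH1 with 4OHT and 64 CPM with ethanol (1.37 ± 0.061); the part of this in the results was not tested.

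In HEK293 none of the 4 genes that led to the choice passed the threshold. PHGDH had 199, 90 and 174 CPM in clones Sa11, SB and TI without doxycycline, against 168, 132 and 163 CPM with it (0.00 on the log2 scale), and clone SB alone was lower. PSAT1 had 133, 74.6 and 110 CPM, against 126, 105 and 141 CPM (-0.23, adjusted p = 0.458). MTHFD2 had 153, 134 and 167 CPM, against 180, 171 and 196 CPM (-0.27, adjusted p = 0.154). It was lower in all 3 clones, and its arms did not overlap. ASNS had 385, 180 and 340 CPM, against 225, 205 and 210 CPM (0.50 ± 0.24, adjusted p = 0.168). Clones Sa11 and TI were higher without doxycycline, by 0.77 and 0.70, and clone SB lower, by -0.19; without the SB library lacking doxycycline ASNS passed (0.79, adjusted p = 0.00168). The ASNS pseudogene ASNSP1 had a median of 306.5 estimated counts in this table, beside 5582.5 for ASNS, so the split of reads between them is uncertain. In the HCT116 table the pseudogenes of these enzymes had a median of at most 1.0025 counts.

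PSPH and MTHFD1L rose in HEK293. PSPH had 55.4, 35.7 and 44.1 CPM without doxycycline, against 29.2, 29.2 and 31.8 CPM with it (0.58 ± 0.16, adjusted p = 0.0325), and MTHFD1L had 123, 115 and 145 CPM, against 74.9, 97.6 and 88.2 CPM (0.55 ± 0.14, adjusted p = 0.0222). Both were higher in every clone, without overlap. They were 2 of 10 genes higher and 0 lower, beside 11.1% of all 15549 genes called higher and 10.9% lower. SHMT1 had 8.72, 10.4 and 7.43 CPM, against 9.9, 8.85 and 36.2 CPM (-1.05 ± 0.48, adjusted p = 0.149, and 0.0488 without the count filter), so that its difference came from clone TI with doxycycline; without that library it was -0.08. SHMT2, MTHFD1 and ALDH1L2 were at -0.03, -0.05 and -0.19 and did not pass. With limma on TPM neither PSPH nor MTHFD1L passed (adjusted p = 0.171 and 0.0666). The PSPH call ended without the library lacking doxycycline of Sa11 or TI (adjusted p = 0.119 and 0.0708) or the doxycycline library of Sa11, SB or TI (0.127, 0.0864 and 0.0853), and that of MTHFD1L without the library lacking doxycycline of Sa11 or TI (0.0705 and 0.0626) or the doxycycline library of Sa11 or TI (0.119 and 0.079).

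In HEK293, of 18 stress-response regulators 12 rose and 0 fell, with a median of 0.82 beside 0 over all genes. This and the counts below stand beside 11.1% of all genes called higher and 10.9% called lower. ATF3 had 133 CPM without doxycycline and 39.9 CPM with it (1.73 ± 0.15), and DDIT3 99.1 and 33.6 CPM (1.56 ± 0.17). ATF4 rose to 1070 CPM without doxycycline, against 763 CPM with it (0.49 ± 0.15, adjusted p = 0.0434), and MYC had 84.2 and 71.8 CPM (0.23 ± 0.25, adjusted p = 0.553). Of 20 tRNA synthetases 7 rose, CARS1 (1.10 ± 0.19) and SARS1 (0.93 ± 0.22) among them, and 1 fell, and CTH, which makes cysteine, rose (1.71 ± 0.31). SLC3A2, the heavy chain of several amino acid exchangers, rose to 262 CPM, against 117 CPM (1.16 ± 0.15). GGH (-1.16 ± 0.13) and GLDC of glycine cleavage (-0.64 ± 0.14) fell. Of 7 colon epithelial markers tested 3 fell and 1 rose, and EPCAM had 45 CPM without doxycycline and 137 CPM with it; the part of this in the results was not tested.

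**Figure D3:**
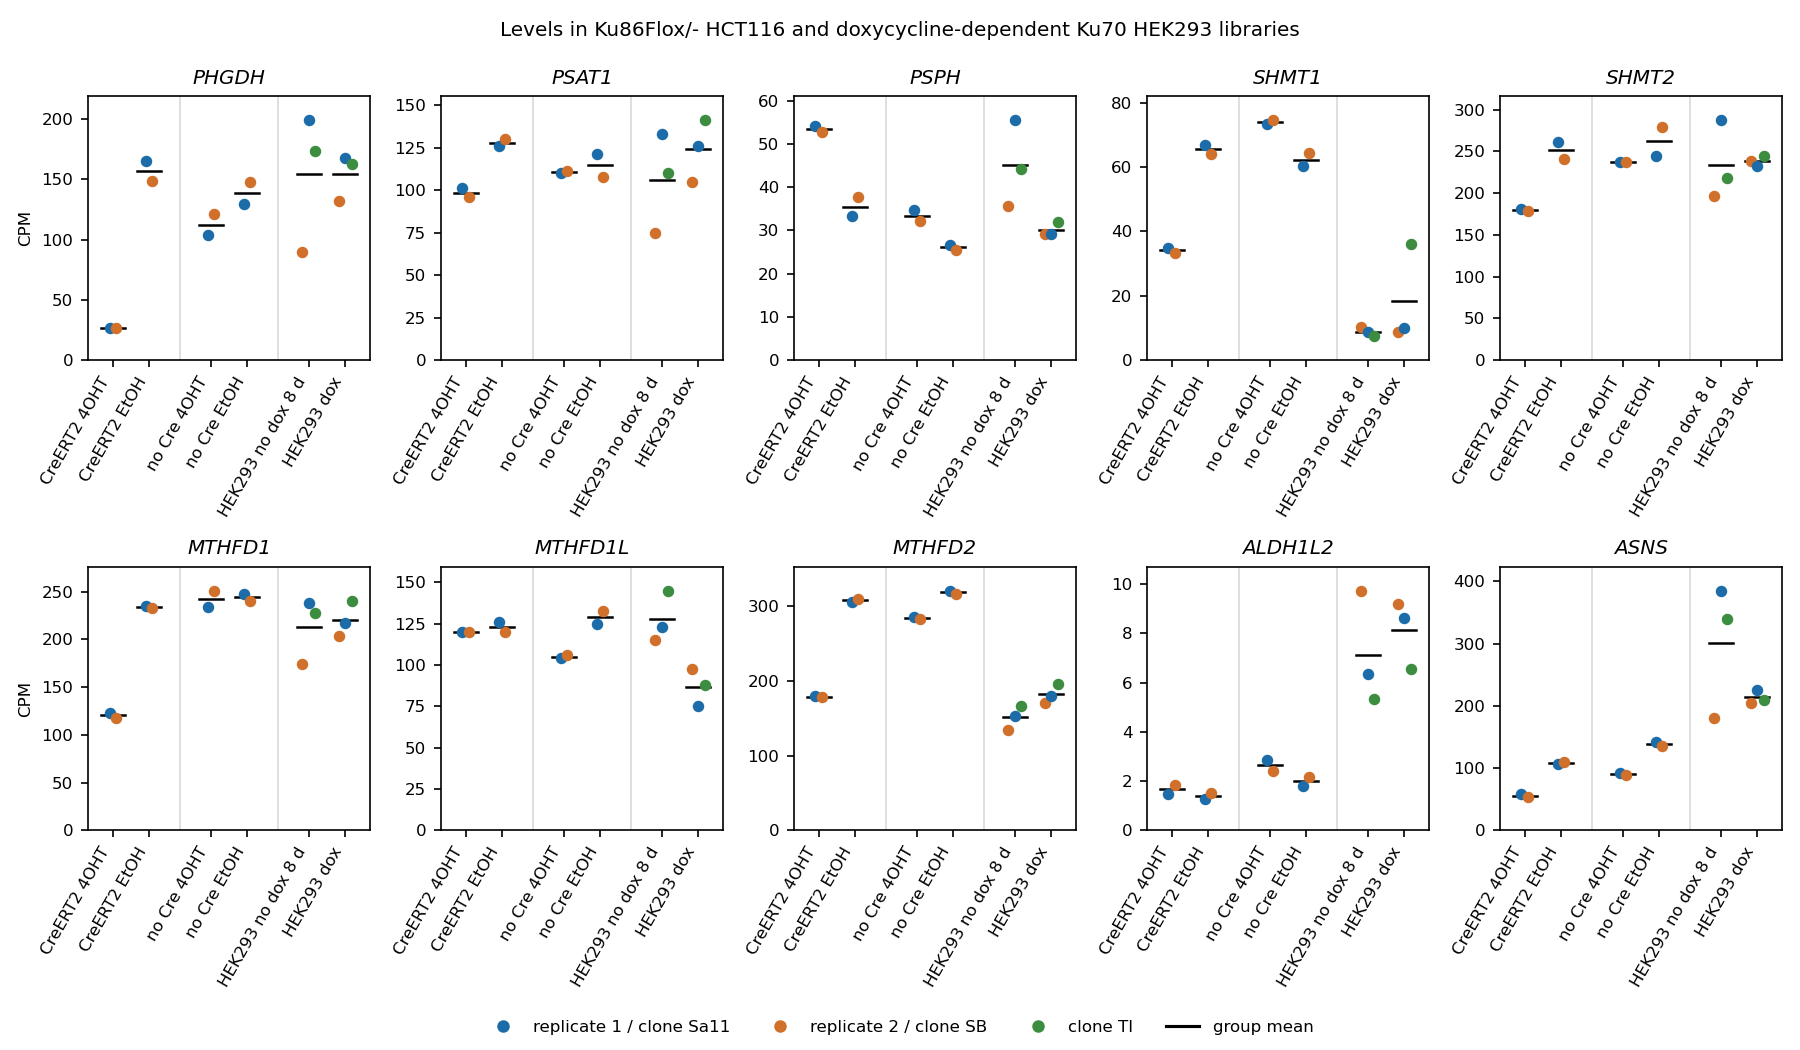
CPM of the 10 enzymes in each Ku86Flox/- and HEK293 library; points are libraries coloured by replicate or clone and black lines are group means. PHGDH with CreERT2 and 4OHT stands at 26.2 and 26.3 CPM, against 149 and 165 CPM with ethanol, while HEK293 clone SB is the lowest without doxycycline, at 90 CPM.

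Across the models, PSPH was called lower in none of the tested comparisons. In HCT116, PHGDH, PSAT1, SHMT1, MTHFD1 and MTHFD2 were each called lower at 4 days with the inhibitor, in MAVS-/- clones and after 4OHT with Cre. None of these enzymes was called in HEK293. After 4OHT without Cre, PHGDH and MTHFD2 were also called lower and SHMT1 higher. MTHFD1L was called lower in 5 tested comparisons, among them MAVS-/- clones and 4OHT without Cre, and higher in HEK293 and in the 4OHT response with Cre minus that without. Over the means of the 12 degron groups, 10235 genes with at least 10 CPM on average were ranked by Pearson's r of log2 CPM with each leading gene, as a description, since these groups share clones, libraries and controls. The 12 groups also include those of the time course that led to the choice. Likeness among the leading genes is therefore in part fixed by the choice. PHGDH was most like SPC24 (r = 0.983), PIMREG (0.979) and ARL6IP1 (0.979), PSAT1 most like MTHFD1 (0.981), PHB2 (0.974) and MCM2 (0.966), MTHFD2 most like SNRNP40 (0.976), NUP88 (0.975) and RANBP1 (0.963), and ASNS most like METTL4 (0.945), NSD2 (0.936) and WEE1 (0.93). PSAT1 was the gene ranked 10 for MTHFD2 (0.954), whereas ASNS ranked 1894 for PHGDH (0.642). ATF4 had r between -0.255 and -0.004 with the 4 genes and MYC between -0.112 and 0.428.

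**Figure D4:**
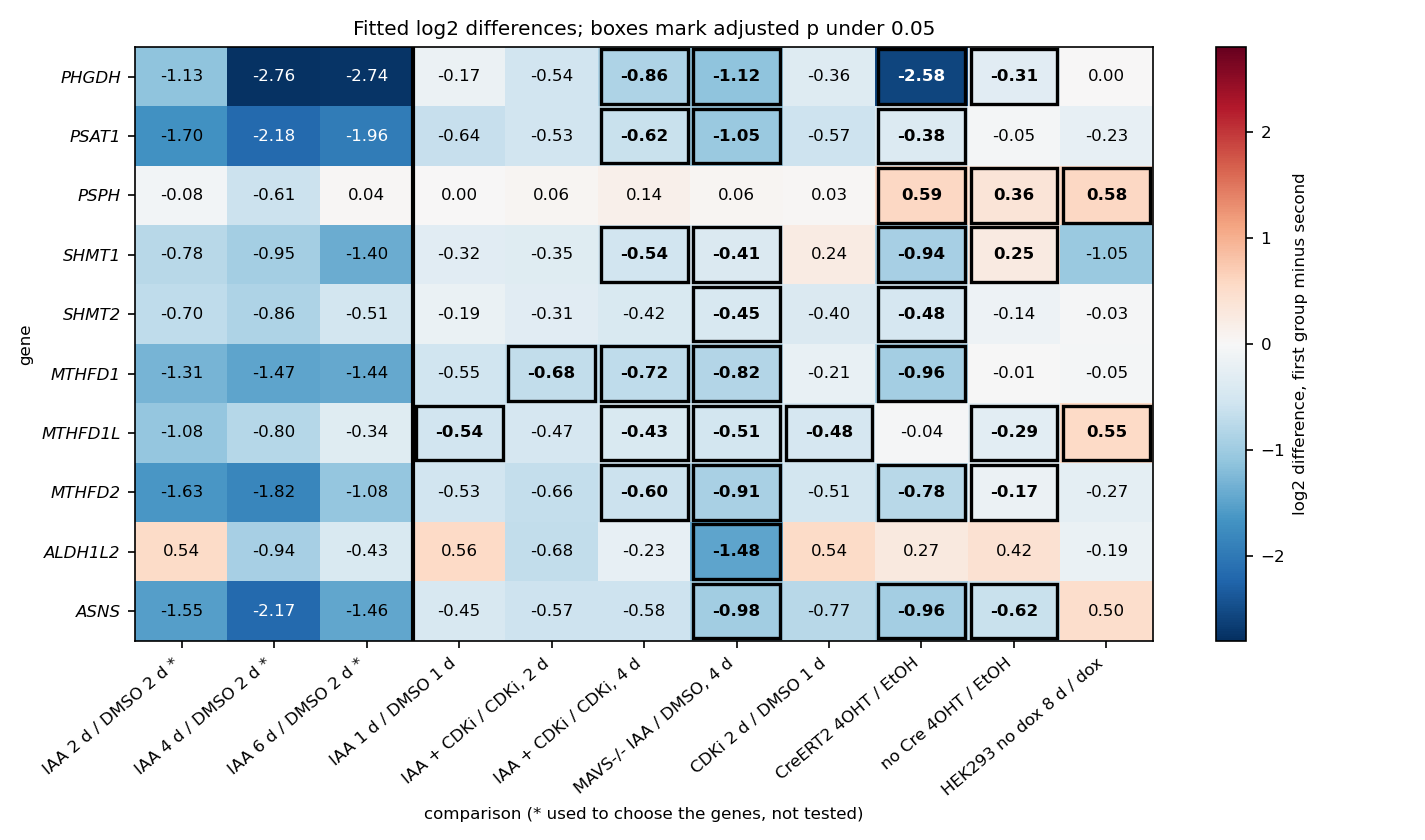
Fitted log2 difference of the 10 enzymes (rows) in 11 comparisons (columns), first group minus second; boxes and bold type mark an adjusted p under 0.05, and the 3 columns with an asterisk led to the choice of the genes and carry no marks. Blue fills most of the MAVS-/- and CreERT2 columns, where PSPH is at 0.06 and 0.59. In the CreERT2 column ALDH1L2 is at 0.27 and MTHFD1L at -0.04. The HEK293 column holds boxes only at PSPH and MTHFD1L.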

How the data were processed

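RNA was measured in 46 libraries, each assigned to its group by the submitters' labels. The authors deposited estimated counts per gene and TPM for each library, in a pair of tables for HCT116 and another for HEK293, with the unit read from the tables' names and values. The submitters' processing notes name Salmon 1.10.2, kallisto 0.50.0, DESeq2 and the GRCh38 build; the names of the HEK293 tables give kallisto, and the tool behind the HCT116 tables is not given in the sources used here. Libraries were polyA-enriched in HCT116 and ribosome-depleted in HEK293, per the labels' protocols. No column was left unmatched to a sample (0).

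Estimated counts were rounded to whole numbers, filtered by group with filterByExpr, scaled by TMM and tested by edgeR 4.0.16 quasi-likelihood F-tests (R 4.3.3) in 3 fits: 32 degron libraries in 12 groups, 8 Ku86Flox/- libraries in 4 groups and 6 HEK293 libraries in 2 groups. These left 20, 4 and 4 residual degrees of freedom, with biological coefficients of variation of 21.7%, 4.63% and 20.8%. Adjusted p-values are Benjamini-Hochberg over all genes of the fit, with a threshold of 0.05, and standard errors (SE) were the log2 difference over the square root of its F. TMM factors ran from 0.904 to 1.1. CPM are counts scaled to the TMM-adjusted library size. The precision of ALDH1L2 is limited by its low counts. The steps were tested on simulated data.

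The 10 members, the lists around them and the comparisons were chosen with earlier results of these data known. All members, ATF4 and MYC were named in every comparison. From each other list at most the 3 genes with the smallest adjusted p under 0.05 were named. Likeness was ranked among genes of at least 10 CPM on average. Degron and HEK293 libraries of both arms share named clones, and those of 1 clone deviated from their group means together, with correlations from 0.0234 to 0.182 with the inhibitor, of 0.139 at 1 day, from 0.0621 to 0.273 in MAVS-/- clones and from 0.245 to 0.467 in HEK293. Each result was also computed with RLE factors, without the count filter, with DESeq2 1.42.0, with limma 3.58.1 on TPM (log2 after adding 1), on the compared groups alone, with a clone or replicate block, and without each library in turn.

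Values of 2 genes of the lists are not reported here.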

Additional observations from a re-analysis of the deposited data

Results flagged for a closer look

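For 8 of the 10 enzymes the 4OHT response in Ku86Flox/-:CreERT2 cells differed from that in Ku86Flox/- cells without Cre, by the interaction term of the edgeR fit, with 2 libraries in each of the 4 groups; 41.2% of all 16726 genes were called in this contrast. The log2 difference of the responses was -2.27 for PHGDH, -1.19 for SHMT1, -0.95 for MTHFD1, -0.62 for MTHFD2, -0.34 for ASNS, -0.34 for SHMT2 and -0.33 for PSAT1. It was 0.26 for MTHFD1L, which differed in the opposite direction to the other 7. Markers moved in the same contrast: of 8 colon epithelial markers tested 5 were higher and 1 lower, CDH1 by 1.25 ± 0.087 among them, and their part in these values was not tested.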

How the results depend on the processing

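No log2 difference that passed the threshold changed sign under any alternative run. With RLE factors the number of genes called in each comparison stayed within 1.5 times. The counts below are of genes called and, where they moved, of the 10 enzymes called; the causes were not tested, except that fits on only the compared groups and fits without a library use fewer libraries and limma uses the TPM. For 1 day of IAA, 35 genes were called, against 127 with no filter (1, another gene than in the edgeR fit), 163 with DESeq2 (2 enzymes), 22 with limma (0), and 1607 with only the compared groups (6). For 2 days of IAA with the inhibitor, 78 were called, against 250 with no filter (2), 292 with DESeq2 (3), 38 with limma (0) and 575 with only the compared groups (4). For the inhibitor against DMSO, 686 were called, against 1045 with no filter (3), 1275 with DESeq2 (2), 386 with limma and 3325 with only the compared groups (6). For MAVS-/- clones 1488 were called, against 775 with only the compared groups (4). For the MAVS-/- response minus that with the inhibitor, 52 were called, against 178 with no filter and 81 with DESeq2. For 4 days of IAA, 6198 were called, against 3892 with only the compared groups. For 4OHT without Cre, 2292 were called, against 1330 with DESeq2, 574 with limma (1) and 1356 with only the compared groups (3). In HEK293, 3426 were called, against 2154 with limma (0).

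With the clone as a block, 107 genes were called for 1 day of IAA (2 enzymes), 165 for 2 days with the inhibitor (2), 1111 for the inhibitor against DMSO (2) and 5404 in HEK293; the enzymes it added are named beside their results, and it ended no call among the 10. In Ku86Flox/- cells replicate numbers are not said to pair libraries, whose deviations correlated at 0.012 with Cre and 0.0632 without; the block gave 8960 and 2238 calls, against 9029 and 2292.

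Leaving out each library in turn gave 3 to 8 genes for 1 day of IAA (0 enzymes), 4 to 9 for 2 days with the inhibitor (0), 80 to 215 for the inhibitor against DMSO (0 to 1), 2274 to 2999 for 2 days of IAA, 1260 to 1933 for 4 days with the inhibitor (4 to 6), 892 to 1320 in MAVS-/- clones (5 to 7), 773 to 2720 for 4OHT without Cre (2 to 6) and 1164 to 4981 in HEK293 (0 to 3). The share of calls that were higher moved by more than 10 points with limma, to 81.8% for 1 day (62.9% in the edgeR fit, and 48% with RLE factors), 86.8% for 2 days with the inhibitor (71.8%), 80.7% at 4 days with it (54.6%), 75.9% in MAVS-/- clones (60%), 29.8% for the inhibitor against DMSO (53.6%), 68.8% and 41.3% for IAA at 2 and 4 days (47.8% and 54.5%), 36.9% for 4OHT with Cre (49%), 72.6% without (53%) and 25.1% for their difference (45.6%). At 11 to 75 counts, ALDH1L2 is limited by depth.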
